A study of Homo sapiens with 6 samples.

Results

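The genes described here are the cytosolic ribosomal proteins, measured in MDA-MB-231 cells with and without the kinase inhibitor DCC-2036. MDA-MB-231 is an established human breast cancer cell line labelled triple negative, and DCC-2036, also called rebastinib, is a small-molecule inhibitor of ABL1 and related tyrosine kinases. Both groups were cultures of this single line in DMEM. The 3 control cultures received 0 μM of the drug and the other 3 cultures received 3.75 μM of DCC-2036, each for 48 h, in what the series describes as independent experiments, and they are called treated replicates 1 to 3. Values of a gene are given in the order of the replicate numbers. Total RNA of each culture was primed at its poly(A) tails for cDNA, which was labelled with a single dye, Cy3, and read on NimbleGen arrays. The members were all genes whose platform symbol begins with RPL or RPS and a digit, or is RPLP0, RPLP1, RPLP2 or RPSA, without the RPS6K kinases and without pseudogenes. This rule found 78 genes among the 17185 genes measured, in 93 records of the array, and each gene was represented by its brightest record. Of these genes, 49 carry symbols of the large 60S subunit and 28 symbols of the small 40S subunit. The remaining gene, RPS19BP1, was matched by its letters only: it encodes a protein that binds RPS19 and is no part of the ribosome. RPSA and RPLP0 were not among the genes named by the platform table.

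Cytosolic ribosomal proteins assemble with ribosomal RNA in the nucleolus into the large subunit, which forms peptide bonds, and the small subunit, which decodes the message. Their mRNAs are among the most abundant of a growing cell, and most carry a 5′ terminal oligopyrimidine (TOP) tract, an uninterrupted run of pyrimidines that starts with a C at the first base. Through this tract the kinase mTORC1, acting through LARP1, controls mainly how well these mRNAs are translated, which an array of mRNA levels does not measure, while MYC is known to promote their transcription.

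To show this shared element, 30 bases around an annotated transcription start were read from the RefSeq promoter table of GRCh38.p14, 10 bases before the start and 20 from it. The windows below are a choice of examples: 5 members with a tract that passed the test described next, 2 parent genes of paralogs that passed, 4 paralogs, and RPL6, which passed without a tract. Capitals mark a TOP tract, taken as a C at the start base followed by at least 4 further pyrimidines. The windows with a tract are given first.
RPLP2 (chr11:809957-809986, plus strand): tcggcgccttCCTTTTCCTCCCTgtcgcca
RPS23 (chr5:82278335-82278364, minus strand): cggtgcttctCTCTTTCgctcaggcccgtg
RPL13 (chr16:89560672-89560701, plus strand): gggccgcttcCTTTCCgctcggctgttttc
RPL13A (chr19:49487598-49487627, plus strand): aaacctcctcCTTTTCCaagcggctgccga
RPL10 (chrX:154398367-154398396, plus strand): ggaggagcgcCTCTTTCCCTTCggtgtggt
RPL26 (chr17:8383174-8383203, minus strand): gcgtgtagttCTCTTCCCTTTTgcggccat
RPS27 (chr1:153990752-153990781, plus strand): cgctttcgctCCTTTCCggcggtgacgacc
The windows of the 4 paralogs and of RPL6 have no tract.
RPL26L1 (chr5:172958719-172958748, plus strand): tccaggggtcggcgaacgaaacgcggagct
RPS27L (chr15:63157458-63157487, minus strand): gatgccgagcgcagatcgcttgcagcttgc
RPL7L1 (chr6:42879606-42879635, plus strand): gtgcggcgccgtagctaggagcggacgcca
RPL10L (chr14:46651762-46651791, minus strand): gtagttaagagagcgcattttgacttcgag
RPL6 (chr12:112409266-112409295, minus strand): gacggcgcgtgcactgtgttcctggtcctg
RPL13 and RPL10 each have 3 annotated starts, of which 1 carried the tract. Of the 76 members that are not Y-linked, 63 were in the table, and 43 of these (68.3%) had a tract at an annotated start, against 860 of 13715 other genes tested (6.27%). All 43 were among the 58 members that are not paralogs (74.1%), and 0 of the 5 paralogs in the table had one. The tracts were 5 to 19 bases long, with a median of 8. Within the 300 bases of the table's promoters, searched on both strands, the ETS-type motif CCGGAAG lay in 23 of 63 members (36.5%) and in 17.2% of the other genes. The E-box CACGTG lay in 5 of 63 members (7.94%) and in 11.1% of the others, and TATAAA in 5 (7.94%) and in 12.3%. These matches are descriptions of letters and not binding sites.

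As a family the ribosomal protein mRNAs moved little with the drug. Their median log2 change, DCC-2036 over control, was 0.00025 against 0.0197 over all genes, and 39 members had a positive and 39 a negative value. By limma, with p-values adjusted across the 17185 genes by Benjamini-Hochberg and called below 0.05, 7 of the 78 members rose, 6 fell and 65 did not pass. The share of members called was 16.7%, where the background over all genes was 29.1% in either direction, with 13.1% called higher and 16% called lower. A change of at least 2-fold was called for 1 member in each direction, RPS2 upward and RPL7L1 downward, against 14.7% of all genes. At an unadjusted p under 0.05, 18 members (23.1%) and 7047 of all genes (41.0%) passed.

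The spread of the changes was also narrow. The middle part of the members, from the lower to the upper quartile, lay between -0.23 and 0.22 on the log2 scale, and that of all genes between -0.48 and 0.47. The median absolute log2 change was 0.23 for the members and 0.48 for all genes. A change within 0.25 of 0 was measured for 43 members (55.1%) and for 28.2% of all genes. Replicate arrays also lay closer together for the members, with a median within-group SD of the log2 value of 0.13 in controls and 0.14 in treated cultures, against 0.22 and 0.25 over all genes. Their 3 control values and 3 treated values did not overlap in 17 members that were higher and in 13 that were lower in treated cultures (38.5% in all), where 46.5% of all genes did not overlap, with 22.2% of all genes higher and 24.3% lower.

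Ribosomal protein mRNAs are bright on the array, which a comparison with all genes does not account for. Their records' mean log2 intensities had a median of 13.83 on a scale where all genes had 8.24, and 57 members had a mean of at least 13. Among all 516 genes that bright, 28.9% were called, with a median absolute log2 change of 0.33. The 57 bright members are part of that group, and 3 of them rose and 3 fell (10.5%), with a median absolute change of 0.21. In 55 of the 516 bright genes (10.7%) the change was at least 2-fold, and this held for 1 of the 57 members (1.75%). The brightest member, RPL41, the shortest ribosomal protein, reached 56280.4, the highest value of the table was 65365, and 2 members exceeded 50000 on an array. Whether compression near the top of the scale narrowed their changes was not tested.

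**Figure D1:**
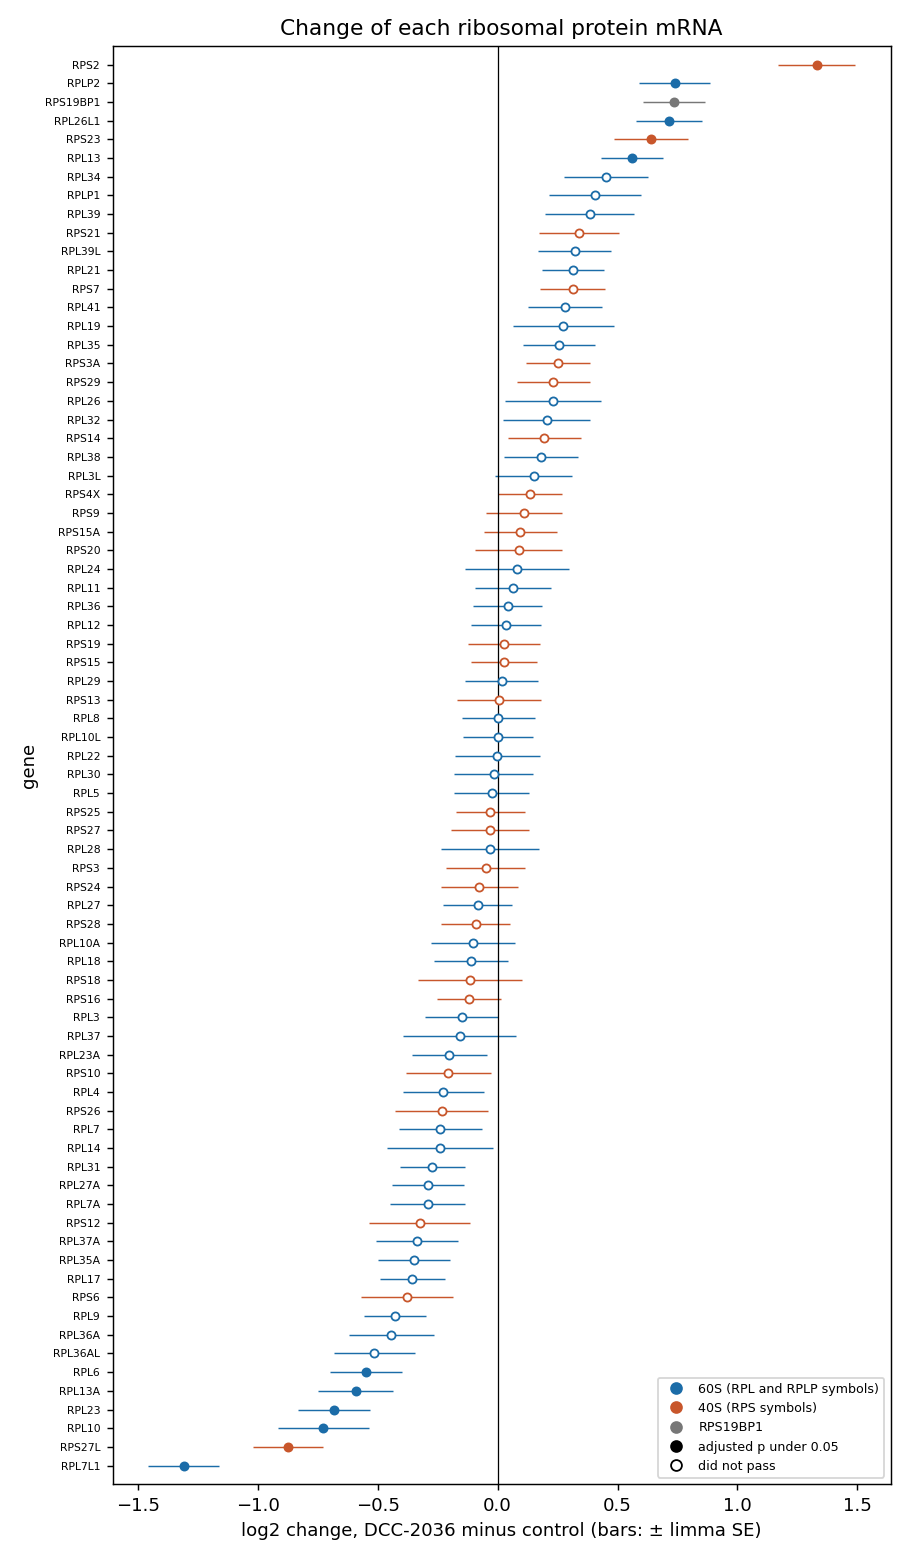
Log2 change (DCC-2036 over control, 3 arrays each) of the 76 members that are not Y-linked, in rank order, with the standard error of limma as bars. Most points lie close to 0, and the ends are held by RPS2 at 1.33 and RPL7L1 at -1.31.

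The shift of the whole family was as small array by array. Relative to the control mean, the median member lay at 0.01, -0.09 and 0.00 on the log2 scale in the treated arrays, and at 0.05, -0.06 and 0.02 in the controls. Members supplied 5.06%, 4.91% and 5.14% of the summed intensity of named genes in the control arrays, and 5.30%, 5.05% and 5.12% in the treated arrays. These ranges overlapped. The values were normalized between arrays, so they give a gene's level relative to the other genes and not the amount of RNA per cell, and in bulk cultures fewer cells of a state and less RNA per cell cannot be told apart.

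**Figure D2:**
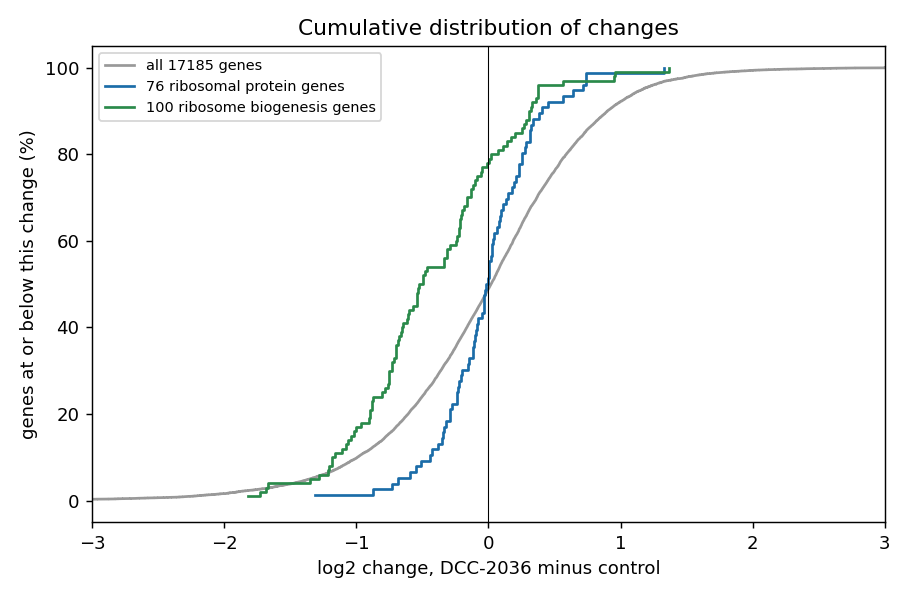
Percent of genes at or below each log2 change (DCC-2036 over control) for the 76 members that are not Y-linked and for all 17185 genes. A further curve shows the assembly factors of the small and large subunits, described below. The curve of the members is steeper around 0, with quartiles at -0.23 and 0.22 over the 78 members against -0.48 and 0.47 over all genes.

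Among the small subunit members, 3 of 28 rose (10.7%, where 13.1% of all genes did), 1 fell (3.57%, where 16% did) and 24 did not pass, with a median log2 change of 0.03. Of the 3 that rose, 1 is Y-linked and is counted without its value. Whether its record read mRNA of that gene was not tested. The call of this Y-linked member was lost with each of the 6 arrays left out in turn. It was also lost with a plain t-test, with the trend and robust settings of eBayes and with the replicate number as a block. RPS2, which lines the path where mRNA enters the 40S subunit, had intensities of 12052, 13639 and 12526 in the controls and 27355, 33749.7 and 35490.5 in the treated cultures. Every treated array was above every control array, and the log2 change was 1.33 ± 0.16 (SE), a 2.52-fold rise (limma, adjusted p = 0.00282). RPS23, a protein of the decoding centre, gave 562, 515 and 557 in the controls and 957, 865 and 739 in the treated cultures. Its groups did not overlap either, and it rose by 0.64 ± 0.15 (adjusted p = 0.0252). That call was lost with each array other than treated replicate 3 left out in turn, with values from 0.55 to 0.66. The RPS23 record was dim for a member, with a mean log2 intensity of 9.41 where the members' median was 13.83.

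The other small subunit proteins clustered around 0. The 23 that are neither Y-linked nor past the threshold ranged from -0.38 for RPS6, the classical substrate of the S6 kinases, to 0.34 for RPS21. By limma, 0 of these 23 reached an unadjusted p under 0.05. The 40S count upward was 1 with each array other than treated replicate 3 left out in turn, and 2 with that array left out, while the count of 1 downward held in each case.

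Among the large subunit members, 3 of 49 rose (6.12%, against 13.1% of all genes), 5 fell (10.2%, against 16%) and 41 did not pass, with a median log2 change of -0.02. The 60S stalk, a flexible arm that recruits elongation factors to the ribosome, is built of RPLP0 and the acidic proteins RPLP1 and RPLP2. RPLP2 gave 10797, 9513 and 10307 in the controls and 18895, 15430.5 and 16882 in the treated cultures. All treated arrays lay above all controls, and the rise was 0.74 ± 0.15 on the log2 scale, 1.67-fold (limma, adjusted p = 0.0135). Its partner RPLP1 measured 12202, 11859.6 and 14195 in controls and 21175, 14862 and 15193 after the drug. Those groups did not overlap either, but the difference of 0.41 ± 0.19 did not pass (adjusted p = 0.166), and a second RPLP1 record gave 0.50. RPLP0, which anchors the acidic proteins and was named only through its RefSeq accession, measured 20440.2, 15622 and 19105 in controls and 22682, 16581 and 20203 in treated cultures. These values overlapped, at 0.11 ± 0.19 (adjusted p = 0.71). Differences between the 3 stalk genes were not tested.

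RPL13, a large subunit protein that is mutated in a human skeletal dysplasia, measured 14268, 15930.1 and 15273 in controls and 22369, 22275 and 22369 in treated cultures. The groups were separate and the log2 change was 0.56 ± 0.13 (limma, adjusted p = 0.0222). The call was lost without each of the 6 arrays in turn (0.52 to 0.60), and the second record of RPL13 gave 0.29 and did not pass.

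In the other direction, RPL23, RPL10, RPL13A and RPL6 fell, beside the paralog RPL7L1. RPL23 lies on the face of the 60S subunit that meets the 40S subunit, and it also binds MDM2, the ubiquitin ligase of p53. Its intensities were 28525, 24378 and 24506 in the controls and 17731, 15159 and 15329 in the treated cultures. No treated value reached a control value, and RPL23 fell by 0.68 ± 0.15 on the log2 scale (limma, adjusted p = 0.0184). RPL10, which joins the 60S subunit late in the cytoplasm near the peptidyl transferase centre, measured 2074, 2019 and 1889 in controls and 945, 1364 and 1351 after treatment. Treated replicate 1 was the lowest array, the groups were separate, and the log2 change was -0.73 ± 0.19 (adjusted p = 0.0316). The brighter record of its copy RPL10L, described below, was at 0.00. RPL13A, a protein that leaves the ribosome to form an inhibitory complex after interferon gamma, measured 11214, 9318 and 11548 in controls and 7558, 7157 and 6514 in treated cultures. Again the groups did not overlap, at -0.59 ± 0.15 (adjusted p = 0.0322). RPL6, a structural protein of the 60S subunit, measured 23568, 18784 and 20582 in controls and 14989.6, 13546 and 14331 in treated cultures, with control replicate 1 the highest array. Its groups were separate as well, at -0.55 ± 0.15 (adjusted p = 0.0367), and its second record gave -0.61.

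These 4 falls were close to the threshold. RPL6 lost its call without each of the 6 arrays (-0.63 to -0.46). RPL10 lost it with each array other than treated replicate 3 left out in turn, and its value was -0.55 without treated replicate 1. RPL13A lost it with each array other than control replicate 2 left out in turn (-0.64 to -0.53). RPL23 lost it without control replicate 1 (-0.61), treated replicate 2 (-0.64) or treated replicate 3 (-0.65). The count of 60S members called lower was 1 without control replicate 1 or treated replicate 2, 2 without control replicate 3 or treated replicate 3, and 3 without treated replicate 1 or control replicate 2. Over the whole family the count lower was 2 without control replicate 1 or treated replicate 2 and 3 without control replicate 3 or treated replicate 3, and the count higher was 4 with each array other than treated replicate 3 left out in turn.

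**Figure D3:**
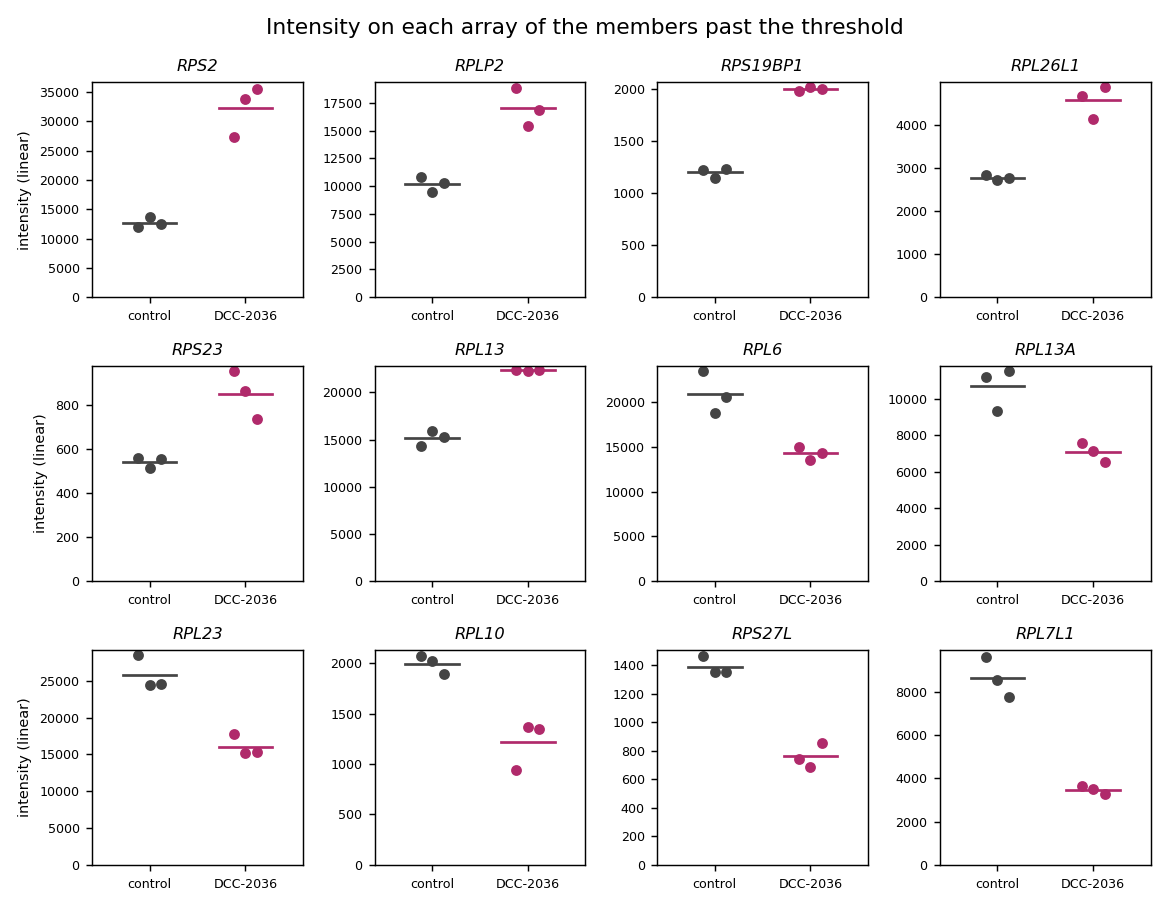
Intensity per array (linear axis from 0, one panel per gene) for the 12 members past the threshold that are not Y-linked, with each control and treated replicate as a point. In each panel the 3 treated arrays lie on one side of the 3 controls, as for RPS2, whose controls end at 13639 and whose treated arrays begin at 27355.

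Large subunit members that did not pass ranged from -0.51 for RPL36AL to 0.45 for RPL34. Of these 41 members, 5 had an unadjusted p under 0.05, and the groups did not overlap in 6 that were higher and 7 that were lower. Over all 49 large subunit members, 26.5% had such a p and 42.9% did not overlap. Over all genes these shares were 41.0% and 46.5%. The value nearest the threshold was that of RPL9, at -0.43 ± 0.13 (limma, adjusted p = 0.0520), whose second record gave -0.52 and passed when all records were tested singly (adjusted p = 0.0458). RPL9 was also called lower with the mean of its records or its second record in place of the brightest. RPL5 and RPL11 form a particle with 5S ribosomal RNA that binds MDM2 when ribosome assembly is disturbed. RPL5 measured 27554, 26541 and 22536 in controls and 25199, 27340.3 and 22726 in treated cultures, and RPL11 measured 8168, 7419 and 8884 and 9189, 7439 and 8979. In both genes the groups overlapped, with log2 changes of -0.02 ± 0.16 (adjusted p = 0.923) and 0.06 ± 0.16 (adjusted p = 0.797).

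Paralogs are copies encoded apart from their parent gene, and RPL7L1 and RPS27L among them had the lowest values of the family. Of 9 paralogs, 2 rose, 2 fell and 5 did not pass (44.4% called), where 4 of the 68 other ribosomal proteins rose, 4 fell and 60 did not (11.8%), and 29.1% of all genes were called. The difference between paralogs and other members was not tested. A pair of these paralogs is Y-linked and not given by value, and 1 of that pair is among the rises. That rise lost its call with each of the 6 arrays left out in turn, and whether its record read mRNA of that gene was not tested. RPL26L1, a close copy of RPL26, had 2840.0, 2712 and 2755 in the controls and 4670.0, 4138 and 4869 in the treated cultures. All treated arrays were above all controls, a rise of 0.72 ± 0.14 on the log2 scale (limma, adjusted p = 0.0119). RPL26 itself was at 0.23 ± 0.20 and did not pass (adjusted p = 0.435). RPS27L, a p53-inducible copy of RPS27, gave 1467, 1353 and 1348 in controls and 740.1, 688 and 851 in treated cultures. It was lower on every treated array, at -0.87 ± 0.15 (adjusted p = 0.00771), while RPS27 was at -0.03 ± 0.16 (adjusted p = 0.906). RPL7L1, which resembles RPL7 and a yeast factor of 60S assembly, gave 9629, 8579 and 7759 in controls and 3640.0, 3507 and 3297 after treatment. Every treated array was far below every control, a fall to a level 2.48-fold lower at -1.31 ± 0.15 (adjusted p = 0.00229), and RPL7 was at -0.24 ± 0.17 (adjusted p = 0.354).

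The remaining pairs did not pass on the paralog's side. RPL10L, an autosomal copy of the X-linked RPL10 that is known from testis, measured 18900.5, 20365 and 21198 in controls and 18906, 19256 and 22459 in treated cultures, at 0.00 ± 0.14 (limma, adjusted p = 0.997) against -0.73 for RPL10. RPL36AL measured 4758, 4513 and 4839 in controls and 3882, 3304 and 2779.6 in treated cultures, at -0.51 ± 0.17 (adjusted p = 0.0641) against -0.44 ± 0.18 for RPL36A. Without treated replicate 1 RPL36AL was at -0.63 and passed. RPL39L, a copy enriched in testis, measured 12832, 11801 and 14144 and 16727, 14413 and 17310.2, at 0.32 ± 0.15 against 0.38 ± 0.19 for RPL39. RPL3L, the copy of heart and skeletal muscle, measured 11228, 10248 and 9156 and 10279.6, 12826 and 10920.4, at 0.15 ± 0.16 against -0.15 ± 0.15 for RPL3. Differences between a paralog and its parent were not tested, and signals of near-identical copies cannot be told apart on the array. The RPL10L record was brighter than that of RPL10, with a mean log2 of 14.30 against 10.60. Whether it also read RPL10 mRNA was not tested. It was likewise not tested whether the RPL3L and RPL39L records read mRNA of their parent genes. RPL22L1 was not among the members.

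**Figure D4:**
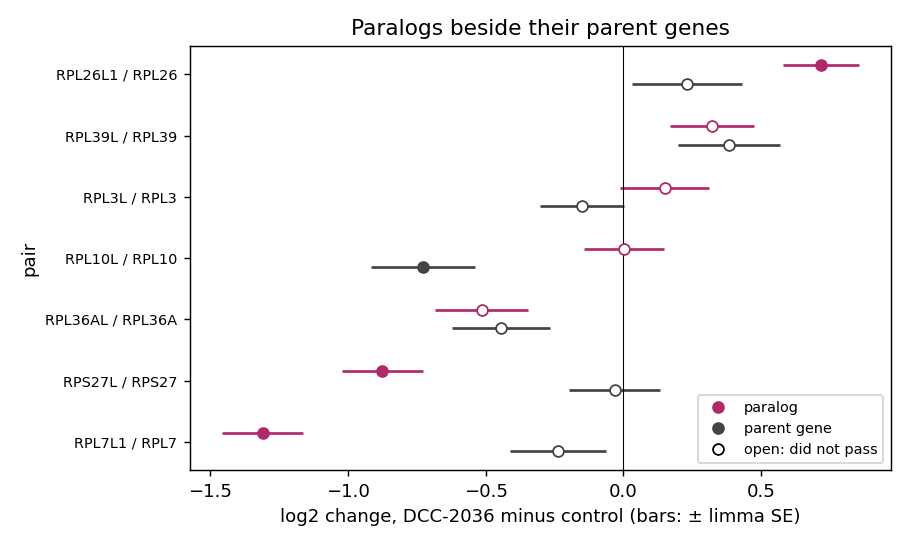
Log2 change (DCC-2036 over control) of each paralog beside its parent gene, with the standard error of limma as bars. RPL26L1 (0.72) lies above RPL26 (0.23), and RPS27L (-0.87) and RPL7L1 (-1.31) lie below RPS27 (-0.03) and RPL7 (-0.24).

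RPS19BP1, the gene that met the rule by its letters, is also known as a regulator of the deacetylase SIRT1. It measured 1223, 1147 and 1233 in controls and 1979.7, 2020.2 and 1996 in treated cultures. The treated arrays lay closely together above the controls, a rise of 0.74 ± 0.13 on the log2 scale (limma, adjusted p = 0.00853). Of the 12 members past the threshold that are given by value, 6 kept their call without each of the 6 arrays in turn, namely RPS2, RPLP2, RPS19BP1, RPL26L1, RPS27L and RPL7L1.

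Of the 43 members with a TOP tract, 3 rose and 2 fell, with a median log2 change of 0.01. Of the 20 without one in the table, 1 rose and 3 fell, with a median of -0.10. Over all genes 29.1% were called. The 20 include all 5 paralogs in the table, of which 1 rose and 2 fell. Runs of pyrimidines that begin off the annotated start base were not counted as a tract. Of 75 annotated starts of members, 60 were at the outer end of the gene. The members with a tract that passed were RPLP2, RPS23, RPL13, RPL13A and RPL10, shown above, and those without were RPL26L1, RPS27L, RPL7L1 and RPL6. The difference between these sets was not tested.

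Several genes had more than 1 record, which gives a check within the array. Among 14 such members, all records had the same sign in 12. The gap between the records of a gene had a median of 0.09 on the log2 scale, from 0.04 for RPL17 to 0.36 for RPS14, whose 3 records gave 0.19, -0.16 and 0.12. RPS29, the other gene with mixed signs, gave 0.23 and -0.03.

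A few ribosomal protein genes lacked a platform symbol and were named through their RefSeq accession, so they lay outside the rule. RPLP0, described with the stalk, is one of them. RPL15, a protein of the 60S subunit, measured 8325, 8023 and 6172 in controls and 7243, 4293 and 3445 in treated cultures. Treated replicate 1 lay among its controls, at -0.65 ± 0.30 over all arrays (limma, adjusted p = 0.16), and without that array the gene passed at -0.95. RPS27A, a 40S protein made as a fusion with ubiquitin, measured 11114, 9588 and 10651 in controls and 8269, 8519 and 7850.0 in treated cultures. Its groups did not overlap, but the difference of -0.35 ± 0.14 did not pass (adjusted p = 0.109). FAU, which encodes a 40S protein fused to a ubiquitin-like protein, was at 0.45 ± 0.21 and did not pass (adjusted p = 0.169), and without treated replicate 1 it passed at 0.66.

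Genes whose products make, carry or control ribosomal proteins were counted from lists, to set the members beside their pathway, and each count is from the same fit over all genes. Of the factors that assemble the large subunit, 28 of 54 measured fell (51.9%, where 16% of all genes fell), 3 rose and 23 did not pass, with a median log2 change of -0.54. NIP7, a 60S assembly factor, was at -1.19 ± 0.14, DKC1, the pseudouridine synthase of ribosomal RNA, at -1.28 ± 0.16, and AFG2A, an ATPase that recycles 60S factors, at -1.68 ± 0.22. BOP1, a subunit of the PeBoW complex, rose by 1.37 ± 0.15. The count lower was 15 without control replicate 1 or control replicate 3 and 16 without control replicate 2 or treated replicate 2. Of 46 small subunit assembly factors 17 fell (37.0%, where 16% of all genes fell), 0 rose and 29 did not pass, with a median of -0.27. EMG1, an 18S ribosomal RNA methyltransferase, was at -1.73 ± 0.15, and the processome proteins UTP3, UTP20 and NOL6 were at -1.67 ± 0.23, -1.21 ± 0.17 and -1.04 ± 0.14. Without control replicate 1 this count was 11, where 1721 of the 17185 genes fell. With the replicate number as a block it was 7, where 1793 of all genes fell.

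RNA polymerase I and its factors, which transcribe ribosomal RNA, gave 6 lower, 0 higher and 9 not passed of 15, with a median of -0.47. The share lower was 40%, where 16% of all genes fell. TAF1A, TAF1D, TAF1B and the subunit POLR1H were at -0.90 ± 0.15, -0.88 ± 0.15, -0.85 ± 0.18 and -0.80 ± 0.17. The count lower was 2 without control replicate 1 or control replicate 2 and 3 without treated replicate 2, and TAF1B and POLR1H lost their calls with each of these 3 arrays left out. Chaperones and importins of ribosomal proteins gave 4 lower (26.7%), 1 higher and 10 not passed of 15, with a median of -0.26. The importins KPNB1 and IPO7 were at -1.14 ± 0.15 and -0.77 ± 0.16, nucleolin (NCL) was at -1.03 ± 0.19, and HEATR3, which serves the import of RPL5, rose by 0.71 ± 0.14. Of 15 snoRNA host genes listed, 1 was measured, TAF1D, which is also counted above.

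Of 33 initiation factors 12 fell (36.4%, where 16% of all genes fell), 2 rose and 19 did not pass, with a median of -0.35. The helicase EIF4A1, EIF3J, EIF2S1 and EIF3A were at -0.94 ± 0.13, -0.98 ± 0.14, -0.998 ± 0.16 and -1.09 ± 0.18. The count higher was 0 without treated replicate 2 and 1 without treated replicate 1, control replicate 1, control replicate 3 or treated replicate 3. Of 23 elongation factors and other TOP mRNAs 3 rose, 2 fell and 18 did not pass, with a median of 0.01. The share called was 21.7%, where 29.1% of all genes were called. EEF1A1, which brings tRNA to the ribosome, rose by 1.48 ± 0.16 and EEF2, the translocase, by 0.96 ± 0.19, while HNRNPA1 was at -0.66 ± 0.13. The EEF1A1 record averaged 738 in controls and 2048 in treated cultures, dimmer than that of EEF2 at 6672 and 12866. EIF3H rose by 0.68 ± 0.18 and did not pass without control replicate 1 (0.72), control replicate 3 (0.55), treated replicate 2 (0.67) or treated replicate 3 (0.62). The count lower in this list was 1 without each of the 6 arrays in turn, when VIM, at -0.51 over all arrays, did not pass.

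Among 29 regulators of ribosomal protein mRNAs, 7 rose, 4 fell and 18 did not pass, with a median of 0.03. The share called was 37.9%, where 29.1% of all genes were called. MYC measured 11794, 14410.3 and 14179 in controls and 3970.0, 4012 and 3885 in treated cultures, lower on every treated array, at -1.76 ± 0.15 (limma, adjusted p = 0.0011). DDIT4, a stress-induced inhibitor of mTORC1, measured 4213, 4813 and 5439.9 in controls and 15940.5, 15032 and 12442 in treated cultures, higher on every treated array, at 1.59 ± 0.17 (adjusted p = 0.00211). RPTOR, a subunit of mTORC1, and MXD4, an antagonist of MYC, rose by 1.64 ± 0.18 and 1.21 ± 0.16. MTOR was at -0.63 ± 0.15 and did not pass without control replicate 1, control replicate 2, treated replicate 1 or treated replicate 2, and EIF4EBP1 was at 0.47 ± 0.14 and did not pass with each of the 6 arrays left out in turn. LARP1, the TOP-binding protein, was at 0.06 ± 0.19 (adjusted p = 0.844). The count lower was 1 without control replicate 1 or control replicate 2. The median change of the members, 0.00025, was measured beside a lower MYC mRNA and a higher DDIT4 mRNA, and a relation between them was not tested.

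**Figure D5:**
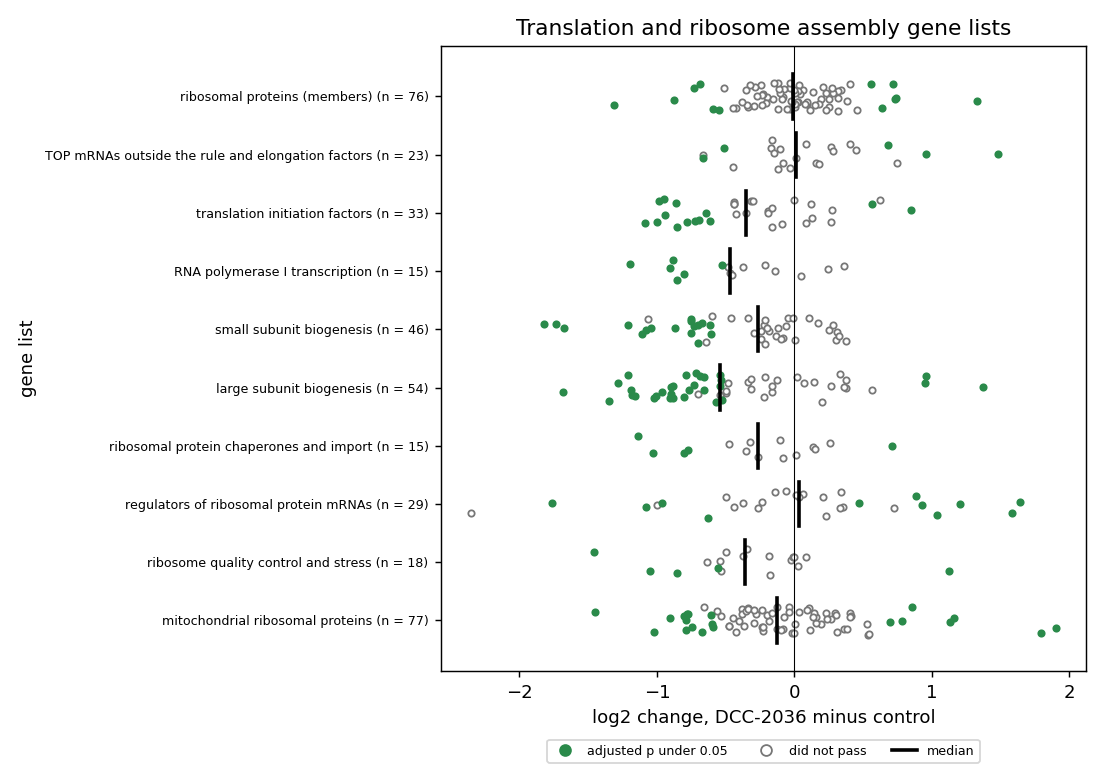
Log2 change of each gene (points) and median (line) for the 76 members that are not Y-linked and for each list of related genes. The members centre on 0, and the medians of large subunit assembly (-0.54) and RNA polymerase I (-0.47) lie to the left of it.

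The arrays were alike in scale, with median intensities from 265 to 274 before any change here, and the markers of the line were read as levels. VIM lay between 10620.3 and 17547 and CD44 between 846 and 2323, ESR1 between 14.3 and 156, PGR between 13.1 and 38.3 and CDH1 between 14.1 and 52.3, while ERBB2 lay between 1618 and 2102 and was not dim. PTPRC, a leukocyte gene, lay between 14.2 and 59.3, and PDGFRB between 151 and 268. The table has no detection call, and levels of different probes are not comparable, so a dim gene is not shown to be absent.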

How the data were processed

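The deposited table holds 1 intensity per record and array, 45033 records on 6 arrays, from 8.03 to 65365 on a linear scale. RMA, a method that corrects background, normalizes between arrays and combines probes, is the tool behind them, per the submitters' processing notes, and the deposited values are therefore normalized intensity. For the array's genome build and the probes per record no source was given here, and no background column or scan date was available for use, so a batch was not tested. The platform's annotation named 18188 records and RefSeq accessions a further 678, which gave 17185 genes, and 26167 records stayed unnamed.

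The deposited intensity values were used without further normalization, and log2 of the value plus 1 was compared between 3 control and 3 DCC-2036 arrays with limma (version 3.58.1 under R 4.3.3), using lmFit and eBayes with two-sided p-values, no covariate, and p-values adjusted by Benjamini-Hochberg across the 17185 genes with calls below 0.05. The precision is limited by 3 arrays per group, and p-values measure the spread between these cultures. With 3 against 3 arrays the smallest two-sided p of an exact permutation test is 0.1, and none was run. The members, the gene lists and the tests were chosen with earlier results of these data known.

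Per-array values are given for members past the threshold, stalk proteins, paralogs with a test beside their parents, RPL5 and RPL11. From each other list up to 4 genes of smallest p are named, with MYC, MTOR, DDIT4, EIF4EBP1, LARP1 and FAU. RPS6, RPS21, RPL34, RPL9, RPL15, RPS27A, VIM, RPL41, RACK1 and genes with several records were named beyond this rule, after their values were seen. Y-linked members are counted and not given by value, and some genes that this rule picks are left out of the text. The fit was tested on simulated data, and no outcome of that is given here. Tables were made with pandas 2.3.3 and figures with matplotlib 3.10.9, both in Python 3.11.15. Alternatives covered normalization, the added constant, dim records, the variance model, a plain t-statistic, the record per gene, array weights, a replicate block, the threshold and each array left out.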

Additional observations from a re-analysis of the deposited data

How the results depend on the processing

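With the replicate number as a block, 3 members rose and 2 fell, with 1 higher and 1 lower in the 60S subunit and 1 higher in the 40S subunit, and 1376 genes rose and 1793 fell in all. With this block 16 large subunit assembly factors, 7 small subunit assembly factors, 9 initiation factors and 2 genes of RNA polymerase I transcription fell. The labels do not say whether equal numbers mark cultures that belong together. Same-numbered control and treated arrays had correlations of -0.08, 0.04 and -0.09 between their deviations over all genes. With 3 arrays per group these values cannot settle the pairing. At an adjusted p under 0.01, 2 members rose and 2 fell, with 0 higher and 1 lower in the 60S subunit and 1 higher in the 40S subunit, and 884 genes rose and 1291 fell. With records below the median left out, 8 members rose and 10 fell, with 5 higher and 9 lower in the 60S subunit. Under that setting 2291 genes rose and 2751 fell, among fewer genes tested. With the trend and robust settings of eBayes, 9 members rose and 11 fell, with 5 higher and 10 lower in the 60S subunit. Under those settings 2654 of the 17185 genes rose and 3188 fell. The cause was not tested, apart from the stricter threshold, which only removes calls.

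With each array left out in turn, 4 to 5 members rose and 2 to 4 fell. In the 60S subunit 2 rose and 1 to 3 fell, and in the 40S subunit 1 to 2 rose and 1 fell. Over all genes 1421 to 1886 rose and 1721 to 2307 fell. The lowest counts over all genes came without control replicate 1. These fits have fewer samples. The median log2 change of the members lay between -0.03 and 0.02 under the alternatives run, and no named gene changed sign with a call. All 13 calls were kept with quantile normalization once more, median centring, 16 added before the log2, the dimmest 25% of records left out and array weights, and RPL13 lost its call with the mean of records (0.42) and with its second record (0.29), while RPL9 gained one in both settings. Counts of the other lists under each alternative, and the share called among bright genes, were added after seeing the data.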

Other observations

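Mitochondrial ribosomal proteins, which build the separate ribosome of the mitochondrion, gave wider values than their cytosolic counterparts in the same fit. In all, 13 of the 77 measured fell and 7 rose, with 57 not past the threshold (26.0% called, where 29.1% of all genes were), with a median log2 change of -0.12 and a median absolute change of 0.36. MRPL41 and MRPL34 rose by 1.90 and 1.79 and MRPS34 by 1.16, while MRPS7 was at -1.45. The count lower was 4 without control replicate 1, 6 without treated replicate 2 and 8 without control replicate 2, control replicate 3 or treated replicate 3. The mitochondrial set was also dimmer, with a median of the mean log2 intensities of 11.07 against 13.83 for the cytosolic members. The difference between the cytosolic and mitochondrial sets was not tested, nor was the part that brightness has in it.

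Genes of ribosome quality control and stress, which handle stalled ribosomes, gave 1 higher, 4 lower and 13 not passed of 18, with a median of -0.36. The share called was 27.8%, close to the 29.1% of all genes. ZNF598, the ubiquitin ligase that senses collided ribosomes, rose by 1.12. MAP3K20, the kinase of the ribotoxic stress response, was at -1.46, ABCE1, which splits ribosomes, at -1.05, and LTN1, the ligase that tags stalled nascent chains, at -0.85. Without control replicate 1 the count lower was 2, and LTN1 was at -0.84 and did not pass. RACK1, a protein of the 40S subunit outside the rule, was at -0.45 and did not pass (limma, adjusted p = 0.0546).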
